A study of Mus musculus with 48 samples.

Results

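The ketone body synthesis genes described here are Acat1, Bdh1 and Slc16a1, chosen by gene symbol, which are 3 of the 11275 genes listed for frozen (FROZ) liver and 3 of the 6673 genes listed for formalin-fixed paraffin-embedded (FFPE) liver. They were followed in male B6C3F1 mice, 4 weeks old at the start, that drank dichloroacetic acid (DCA) for 6 days. DCA is a halogenated acetic acid that forms when water is chlorinated. The 4 groups drank water with 0 (vehicle), 1.0, 2.0 or 3.5 g/L DCA, and the labels give their intake as 198, 313 or 427 mg/kg-d of DCA in the treated groups. Each group held 6 animals. Each animal gave 1 FROZ and 1 FFPE library, so there were 24 libraries of each kind and 48 in all. FROZ libraries came from RNA of mixed liver lobes and FFPE libraries from lysed sections of the left lateral and right medial lobes, so an effect of preservation and one of lobe or of RNA input cannot be told apart. Gene expression was measured by TempO-Seq, in which a pair of neighbouring probes on a transcript is joined by a ligase, amplified and counted by sequencing.

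Ketone bodies are made in liver mitochondria from acetyl-CoA, mostly that of fatty acid oxidation, and are burned as fuel by other organs. Acat1 encodes the mitochondrial acetoacetyl-CoA thiolase, which joins a pair of acetyl-CoA molecules into acetoacetyl-CoA and also works in the breakdown of isoleucine and in ketone use. Acetoacetate is made from it in further steps, and Bdh1, the mitochondrial 3-hydroxybutyrate dehydrogenase, interconverts acetoacetate and 3-hydroxybutyrate. Slc16a1 encodes the monocarboxylate transporter MCT1, which carries lactate, pyruvate and ketone bodies across the plasma membrane. Slc16a1 is therefore a transporter of the products and not an enzyme of their synthesis.

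In the GENCODE vM21 annotation of GRCm38 (mm10), Acat1 lies on the minus strand of chromosome 9 from 53580522 to 53610382, Bdh1 on the plus strand of chromosome 16 from 31422280 to 31458901, and Slc16a1 on the plus strand of chromosome 3 from 104638668 to 104658462. None of the transcript windows of 50 bases of these genes occurred in another gene (0 for each gene), so reads of this length from them have no identical copy elsewhere in the annotated transcripts. Promoter windows of 300 bases around RefSeq starts (GRCm38.p6) are shown because Slc16a1 rose in treated FROZ liver and Bdh1 did not pass the test against vehicle at any dose. RefSeq gave 1 window for Slc16a1 and 2 for Bdh1. Capitals mark an E-box (CACGTG) or a GC box (GGGCGG or its reverse complement CCGCCC).
Slc16a1, chr3:104638414-104638713, plus strand: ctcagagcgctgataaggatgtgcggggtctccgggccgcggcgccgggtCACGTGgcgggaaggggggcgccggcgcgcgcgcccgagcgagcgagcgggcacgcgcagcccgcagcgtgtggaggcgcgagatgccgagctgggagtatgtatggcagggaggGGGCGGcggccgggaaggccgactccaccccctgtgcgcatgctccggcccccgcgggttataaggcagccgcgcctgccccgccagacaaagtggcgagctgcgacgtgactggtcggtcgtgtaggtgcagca
Bdh1, first window, chr16:31422047-31422346, plus strand: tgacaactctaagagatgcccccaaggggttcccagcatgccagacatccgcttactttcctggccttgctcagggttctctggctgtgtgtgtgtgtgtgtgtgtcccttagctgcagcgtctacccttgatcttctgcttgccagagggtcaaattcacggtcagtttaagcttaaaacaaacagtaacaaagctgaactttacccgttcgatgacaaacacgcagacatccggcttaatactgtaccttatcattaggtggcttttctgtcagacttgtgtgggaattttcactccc
Bdh1, second window, chr16:31428503-31428802, plus strand: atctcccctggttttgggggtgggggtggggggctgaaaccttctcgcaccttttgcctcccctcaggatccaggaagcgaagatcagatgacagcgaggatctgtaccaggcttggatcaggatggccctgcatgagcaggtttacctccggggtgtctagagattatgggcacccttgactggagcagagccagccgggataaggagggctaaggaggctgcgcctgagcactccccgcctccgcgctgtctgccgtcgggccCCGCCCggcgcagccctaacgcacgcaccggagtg

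The Slc16a1 window held 1 E-box and 1 GC box, the second Bdh1 window held 1 GC box, and the first held neither. Of 32851 promoter windows of this length, 7.15% held CACGTG and 35.7% held GGGCGG, both strands searched. The nuclear receptor half-site AGGTCA, found in 16.3% of the windows, was in none of the 3. The GC content was 73.7% for the Slc16a1 window and 48.3% and 63.7% for the Bdh1 windows, with no value over all windows given here. Acat1, which also rose, has no window here. These motifs were chosen after the sequences were seen, and a match is a description of the letters only.

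The FROZ libraries held 6.69 to 9.84 M reads on listed genes (median 8.25) and the FFPE libraries 1.83 to 6.01 M (median 4.71), as recovered from the steps of the low values. Between 12 and 61 genes were at 0 in a FROZ library and between 65 and 1580 in an FFPE library. The FFPE libraries with many genes at 0 were unequally spread over the doses, with medians of 277.5 genes at 0 in the controls, 980.5 at 198, 630.5 at 313 and 134 at 427 mg/kg-d. Hepatocyte markers were abundant in every FROZ group, with summed levels of 17935 to 34762 CPM (reads of a gene scaled to the library's total) over the 5 of 6 markers listed. Their sum ran from 21547 to 27072 CPM in the controls and from 18596 to 23014 CPM at 427 mg/kg-d. The 5 endothelial markers summed to 118 to 138 CPM in the controls and 92.3 to 112 CPM at 427 mg/kg-d, and the 4 red cell markers to 40.9 to 78.7 CPM in the controls, 19.3 to 36.5 CPM at 313 and 23.1 to 49.7 CPM at 427 mg/kg-d, where they overlapped the controls. The 4 of 5 Kupffer cell markers listed summed to 50.4 to 80.9 CPM in the controls and 42.3 to 59.0 CPM at 427 mg/kg-d. The endothelial genes were mixed, with log2 fold changes from -0.66 to 0.23 at 427 mg/kg-d. The 4 of 5 stellate cell markers listed summed to 156 to 380 CPM (median 166) in the controls. At 427 mg/kg-d their sum was 139 to 266 CPM, with a higher median of 193 CPM. In FFPE liver the 4 hepatocyte markers listed summed to 35663 to 48323 CPM in the controls and, without overlap, to 24221 to 29227 CPM at 427 mg/kg-d. These 4 genes did not all fall, with log2 fold changes from -0.79 to 0.61. By the test described below 1 of them passed as a decrease and 3 did not pass. Fewer cells of a type and less RNA per cell cannot be told apart in bulk liver. Each marker gene listed was above 0 in at least 1 library of every group, and the part of cell makeup in the results was not tested.

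In FROZ liver Acat1 and Slc16a1 were higher at 313 and 427 mg/kg-d of DCA than in the controls, by about the same amount at both doses, and neither passed the test at 198 mg/kg-d. Acat1 rose 1.48-fold at 313 and 1.46-fold at 427 mg/kg-d, and Slc16a1 rose 1.69-fold and 1.73-fold. Bdh1 did not pass the test against the controls at any dose, but was 1.42-fold higher at 427 than at 313 mg/kg-d. Values below are log2(CPM + 1), and a call is an FDR (Benjamini-Hochberg over all genes of the table) under 0.05 in limma on the 24 libraries of a table. A differentially expressed gene (DEG) had in addition a fold change above 2, which none of the 3 genes reached in FROZ liver at any dose, where 0.106, 2.31 and 3.5% of all genes were DEGs at the 3 doses.

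The first step of the pathway, Acat1, had FROZ levels of 7.49 (lowest), 8.02 (median) and 8.18 (highest) in the controls. In the 198 mg/kg-d group its levels were 7.49, 8.04 and 8.11 in the same order. They were 8.40, 8.50 and 8.68 at 313 mg/kg-d. All 6 animals at 313 mg/kg-d lay above all controls, whereas the controls and the animals at 198 mg/kg-d overlapped over nearly their whole range. The Acat1 levels at 427 mg/kg-d were 8.16, 8.50 and 8.82, with 5 of 6 animals above all controls and animal 101 just within the control range. The group means were 7.96 ± 0.26 in the controls, 7.96 ± 0.23 at 198, 8.52 ± 0.10 at 313 and 8.50 ± 0.22 at 427 mg/kg-d (SD, n = 6 each). The log2 fold change of Acat1 was 0.57 (SE 0.12, FDR = 0.000620) at 313 mg/kg-d and 0.55 (SE 0.12, FDR = 0.000648) at 427 mg/kg-d in limma. The lowest dose gave 0.00 (95% interval -0.23 to 0.24, FDR = 0.995). The step between neighbouring doses was 0.56 (FDR = 0.00177) from 198 to 313 mg/kg-d and -0.02 (95% interval -0.26 to 0.22, FDR = 0.946) from 313 to 427 mg/kg-d, again by limma.

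Bdh1, the last enzyme, differed between the higher doses and did not pass the test against vehicle at the FDR threshold. Its FROZ levels were 9.33, 9.63 and 9.79 (lowest, median and highest) in the controls. They were 9.14, 9.40 and 9.79 at 198 mg/kg-d. The animals at 313 mg/kg-d had Bdh1 levels of 8.88, 9.36 and 9.53. These 3 groups overlapped, with 2 of 6 animals at 313 mg/kg-d below all controls. At the highest dose the levels were 9.55, 9.77 and 10.14, where every animal lay above every animal of the 313 mg/kg-d group and 3 of 6 lay above all controls. The group means of Bdh1 were 9.58 ± 0.17, 9.43 ± 0.24, 9.31 ± 0.22 and 9.81 ± 0.24 in order of dose (SD, n = 6 each). Against the controls the log2 fold change was -0.15 (FDR = 0.563) at 198, -0.27 (SE 0.12, FDR = 0.0955) at 313 and 0.23 (SE 0.12, FDR = 0.163) at 427 mg/kg-d in limma. From 313 to 427 mg/kg-d Bdh1 rose by 0.50 (SE 0.12, FDR = 0.0188), a call that was lost when animal 74 (0.42, FDR = 0.0607), animal 99 (0.43, FDR = 0.0646) or animal 101 (0.47, FDR = 0.0507) was left out of the limma fit. When each FROZ library was scaled by median ratios in place of its total, the Bdh1 change at 313 mg/kg-d became -0.42 (FDR = 0.0153 in limma) and passed the test as a decrease.

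Slc16a1, the transporter, had the largest change of the 3 genes in FROZ liver. Its levels were 7.56, 7.86 and 7.97 (lowest, median and highest) in the controls. They were 7.62, 8.00 and 8.11 at 198 mg/kg-d, with 4 of 6 animals above all controls. At 313 mg/kg-d Slc16a1 levels were 8.19, 8.55 and 8.96, and at 427 mg/kg-d 8.36, 8.54 and 8.93. All 12 animals of the higher doses lay above all controls and above all animals at 198 mg/kg-d, and 3.16% of all genes were without overlap and higher from 198 to 313 mg/kg-d. The group means were 7.82 ± 0.14, 7.94 ± 0.17, 8.58 ± 0.30 and 8.61 ± 0.20 in order of dose (SD, n = 6 each). The log2 fold change of Slc16a1 was 0.12 (FDR = 0.636) at 198, 0.76 (SE 0.12, FDR = 2.36e-05) at 313 and 0.79 (SE 0.12, FDR = 8.30e-06) at 427 mg/kg-d in limma. The step from 198 to 313 mg/kg-d was 0.64 (FDR = 0.000538) and that from 313 to 427 mg/kg-d was 0.03 (95% interval -0.21 to 0.27, FDR = 0.934).

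**Figure D1:**
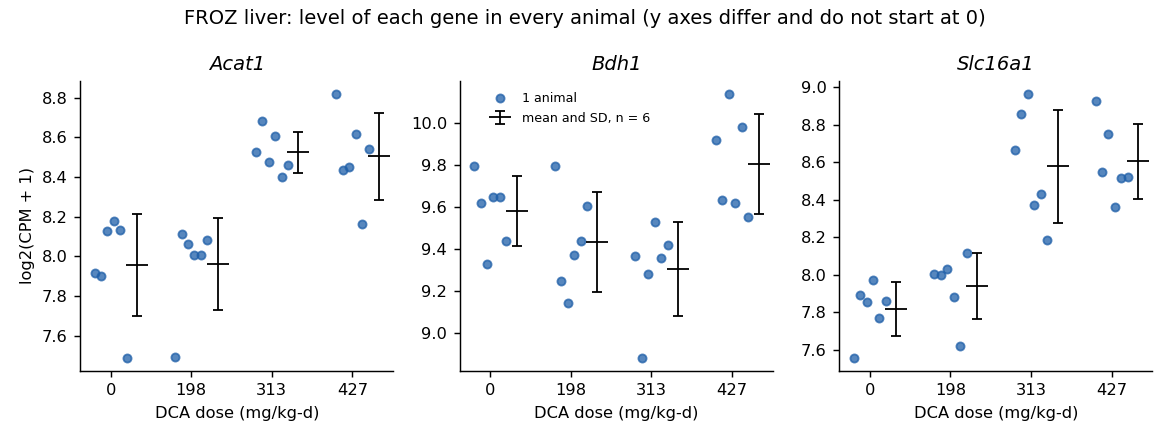
Level of Acat1, Bdh1 and Slc16a1 in FROZ liver, as log2(CPM + 1) on y axes that differ between genes and do not start at 0, against the DCA dose in mg/kg-d. Each point is 1 animal and the bars are the mean and SD of 6 animals. Acat1 and Slc16a1 sit higher at 313 and 427 mg/kg-d than at 0 and 198 mg/kg-d, and Bdh1 sits lowest at 313 and highest at 427 mg/kg-d.

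A call was common in FROZ liver at the higher doses, and the members are read against that background. At 313 mg/kg-d 2 of the 3 genes were called as higher, where 20.5% of all genes tested were, and at 427 mg/kg-d the same 2 genes were called, where 22.7% were. The median log2 fold change of the 3 genes was 0.57 and 0.55 at these doses, against 0.11 and 0.10 over all genes. From 198 to 313 mg/kg-d the 2 genes were called as higher, against 8.05% of all genes, and from 313 to 427 mg/kg-d Bdh1 alone was, against 1.73%. At 198 mg/kg-d limma called 0 of the 3 genes in either direction, with 0 at an unadjusted p under 0.05, where 1.56% of all genes were called. At 313 mg/kg-d 3 of the 3 genes had an unadjusted p under 0.05, Bdh1 as a decrease, as did 4208 of all 11275 genes. For 427 mg/kg-d these counts were 2 and 4471. The slope over the 4 group means was 0.15 per 100 mg/kg-d for Acat1 (FDR = 5.04e-05), 0.21 for Slc16a1 (FDR = 5.78e-07) and 0.03 for Bdh1 (FDR = 0.467) in limma, where 25.6% of all genes were called with a rising slope. A two-sided exact rank sum test of 6 treated against 6 control animals gave p = 0.00216, the smallest it can give, for Acat1 at 313 mg/kg-d and for Slc16a1 at 313 and 427 mg/kg-d. Groups without overlap and with the treated animals higher were found for 9.14% of all genes at 313 and 11.4% at 427 mg/kg-d. For Acat1 at 427 mg/kg-d the exact p was 0.00433, and for Bdh1 between 427 and 313 mg/kg-d it was 0.00216, where 1.25% of all genes lay apart in that direction.

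Scaling changed how many genes were called as higher but not the calls of Acat1 and Slc16a1. With median ratios, which take the median of all genes from 0.11 to -0.00430 at 313 mg/kg-d in FROZ liver, 1158 genes were called as higher and 1223 as lower at that dose, against 2317 and 693 with CPM. For 427 mg/kg-d the split was 1423 and 1422 with median ratios and 2565 and 826 with CPM. Under median ratios Acat1 changed by 0.43 (FDR = 0.00870) and 0.40 (FDR = 0.0106) at the higher doses and Slc16a1 by 0.62 (FDR = 0.000463) and 0.64 (FDR = 0.000209), in limma. Bdh1 at 427 mg/kg-d was 0.08 (FDR = 0.674) under this scaling.

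**Figure D2:**
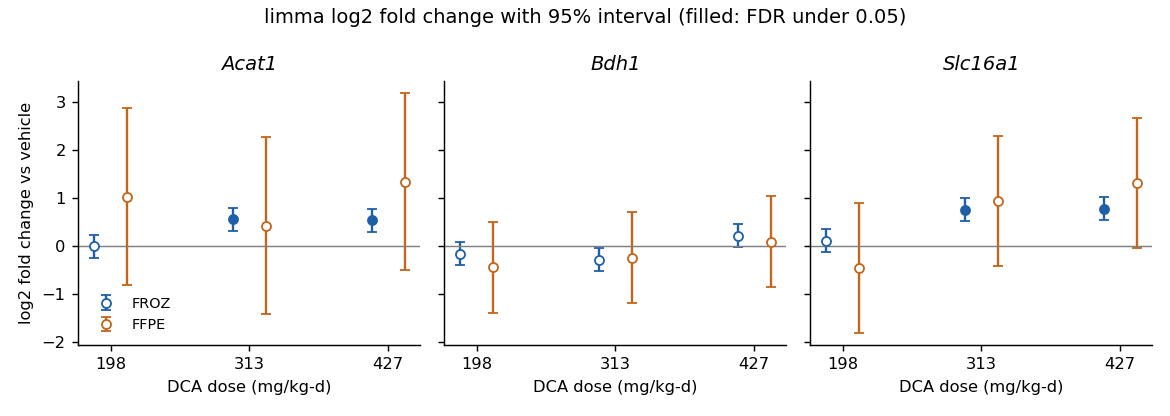
Log2 fold change against vehicle, with 95% intervals from limma, for Acat1, Bdh1 and Slc16a1 at each DCA dose (x axis, mg/kg-d) in FROZ (blue) and FFPE (orange) liver, where filled points have an FDR under 0.05. The filled points are Acat1 and Slc16a1 in FROZ liver at 313 and 427 mg/kg-d, and every FFPE interval includes 0.

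Of the genes for ketone use, Oxct1, the transferase with which other organs activate acetoacetate, and Aacs, the cytosolic acetoacetyl-CoA synthetase, were listed in both tables, and Oxct2a and Oxct2b in neither. Levels are not compared between genes, since each rests on its own probe and the assay attenuates abundant probes, that of Acat1 among them. In FROZ liver Oxct1 did not pass the test at any dose, with changes of -0.41 (FDR = 0.493), -0.71 (FDR = 0.0700) and -0.61 (FDR = 0.113) in limma. Control animal 5 stood at 5.11, where the other 5 controls lay between 2.29 and 2.86. Aacs was likewise not called against the controls, with changes of -0.66 (FDR = 0.182), 0.30 (FDR = 0.433) and 0.15 (FDR = 0.708), but it rose by 0.96 (SE 0.26, FDR = 0.0157) from 198 to 313 mg/kg-d in limma. In FFPE liver Oxct1 was 1.92 at 427 mg/kg-d (SE 0.90, FDR = 0.537), and it was at 0 in at least 1 library of each of the other groups.

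Slc16a1 was compared with other genes of the monocarboxylate transporter families and their chaperones, 7 of which were listed in FROZ liver. What each product carries was not measured. Slc16a5, whose product belongs to the same transporter family, was the DEG of the list, with FROZ levels of 2.93, 3.37 and 4.03 in the controls, 5.16, 5.79 and 6.49 at 313 mg/kg-d and 6.69, 6.96 and 7.99 at 427 mg/kg-d. It rose by 2.35 (SE 0.29, FDR = 1.54e-06) and 3.64 (SE 0.29, FDR = 4.65e-10) at these doses in limma, and unlike Slc16a1 it lay without overlap between 313 and 427 mg/kg-d. In FFPE liver Slc16a5 rose by 3.86 at 427 mg/kg-d (SE 0.83, FDR = 0.00506). Of the 7 genes 2 rose at 427 mg/kg-d, the other being Slc16a13 (0.90, FDR = 0.000994), where 22.7% of all genes did, and 5 did not pass, with a median of 0.30 over the list. At 313 mg/kg-d 3 of the 7 rose, with Slc16a6 (0.54, FDR = 0.0182) beside the same pair, where 20.5% of all genes did, and the median was 0.19. At 198 mg/kg-d 1 of the 7 was called, Slc16a7 as a decrease (-0.50, FDR = 0.0424 in limma), where 1.56% of all genes were called in either direction. Bsg, the chaperone that brings MCT1 to the membrane, was at 0.15 (FDR = 0.153 in limma) at 427 mg/kg-d.

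Genes of mitochondrial fatty acid oxidation, which supplies acetyl-CoA to Acat1, rose in FROZ liver in 14 of 15 listed cases at 313 and again at 427 mg/kg-d, with list medians of 0.63 and 0.75, where 20.5% and 22.7% of all genes rose. By limma 6 were DEGs at 427 mg/kg-d. These were Acadm (medium-chain acyl-CoA dehydrogenase, 1.54, FDR = 6.10e-10), Eci1 (enoyl-CoA isomerase, 1.49, FDR = 2.01e-08), Cpt2 (carnitine palmitoyltransferase, 1.41, FDR = 1.17e-09), Slc25a20 (carnitine carrier, 1.29, FDR = 8.48e-07), Hadhb (trifunctional protein, 1.20, FDR = 1.83e-08) and Acadl (long-chain acyl-CoA dehydrogenase, 1.02, FDR = 3.67e-07). Cpt1a, the carnitine palmitoyltransferase of the outer membrane, was the 1 gene that did not pass, at 0.33 (SE 0.22, FDR = 0.271). In limma 0 of the 15 passed at 198 mg/kg-d, with a list median of 0.13, where 1.56% of all genes were called. In FFPE liver 3 of 15 rose at 427 mg/kg-d and 12 did not pass, where 2.41% of all genes were called in either direction. The DEGs there were Acadm at 1.51 (FDR = 7.11e-06) and Eci1 at 1.29 (FDR = 0.0312) in limma.

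Other neighbours of the pathway were mixed. Of 12 genes of branched-chain amino acid breakdown, 4 rose and 1 fell at 427 mg/kg-d in FROZ liver and 7 did not pass, with a median of 0.16. At that dose 22.7% of all genes rose and 826 of 11275 fell. At 313 mg/kg-d 3 rose and 2 fell, with a median of 0.03, where 20.5% of all genes rose and 693 of 11275 fell. Of 6 regulators of ketogenesis, 4 rose and 0 fell at 427 mg/kg-d, with a median of 0.41, where 22.7% of all genes rose. At 313 mg/kg-d 1 of the 6 rose and 1 fell, with a median of 0.07, where 20.5% of all genes rose and 693 of 11275 fell. Fgf21, a liver hormone of fasting, was the DEG among them at 1.13 (SE 0.18, FDR = 1.62e-05), and it was at 0.50 (FDR = 0.0370) at 313 mg/kg-d. Ppargc1a, a transcriptional coactivator of mitochondrial genes, was the gene that fell at 313 mg/kg-d, by limma (-0.68, FDR = 0.0268), and it was at -0.28 (FDR = 0.389) at 427 mg/kg-d.

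Within FROZ liver the levels of Acat1 and Slc16a1 had a Pearson r of 0.76 over the 24 libraries, and of 0.18 once the dose means were taken out. Bdh1 had an r of -0.07 with Acat1 and 0.03 with Slc16a1, and of -0.32 and -0.12 without the dose means. These values describe libraries that share dose groups and differ in depth, from 6.69 to 9.84 M reads. The genes most like Acat1 by Pearson r over the 24 libraries were Entpd5 (0.919), Aldh1a7 (0.908) and Atp6v1c1 (0.907). Those most like Slc16a1 were Arpp19 (0.948), Nudt9 (0.945) and Rnf11 (0.934), and those most like Bdh1 were Ptov1 (0.850), Serpina6 (0.802) and Cln8 (0.801). Without the dose means these r were 0.741, 0.778 and 0.764 for Acat1 in the same order. They were 0.764, 0.781 and 0.691 for Slc16a1 and 0.782, 0.668 and 0.657 for Bdh1. The genes were picked for the highest r among all genes, so a high r is built in.

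In FFPE liver the 3 genes were measured at lower levels and with a wider spread. The SD within doses was 0.85 for Bdh1, 1.69 for Acat1 and 1.27 for Slc16a1, against 0.22, 0.21 and 0.21 in FROZ liver, where the median over all genes was 1.36 in FFPE and 0.24 in FROZ liver. By limma 0 of the 3 genes passed the test at 198, 313 or 427 mg/kg-d, and 0 had an unadjusted p under 0.05 at any of these doses. Of all genes in FFPE liver 0.0599, 1.08 and 2.41% were called at the 3 doses.

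Acat1 in FFPE liver was spread mainly by a few libraries near 0. Its levels were 0.52, 4.59 and 5.71 (lowest, median and highest) in the controls, 1.23, 5.39 and 6.92 at 198, 0.72, 4.90 and 6.52 at 313 and 5.20, 5.44 and 5.66 at 427 mg/kg-d. The low values rested on 2 reads in control animal 3, 7 reads in animal 50 at 198 mg/kg-d and 2 reads in animal 73 at 313 mg/kg-d, while the FROZ libraries of the same animals held 2098, 2346 and 3003 reads of Acat1. The log2 fold change was 1.04 (SE 0.90, FDR = 0.676), 0.43 (FDR = 0.907) and 1.35 (SE 0.90, FDR = 0.845) at the 3 doses in limma, and the groups overlapped at each dose. Without control animal 3 the values were 0.33, -0.28 and 0.64, none of them called. Without animal 50 the value at 198 mg/kg-d was 1.81, and without animal 73 that at 313 mg/kg-d was 1.19. The sign at 198 mg/kg-d turned to -0.57 (FDR = 0.918) with library quality weights and to -1.60 (FDR = 0.890) without the 8 FFPE libraries in which over 10% of the genes were at 0, and neither was called by limma. That exclusion was added after the data were seen and leaves out 1 control, 4 animals at 198 and 3 at 313 mg/kg-d.

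Bdh1 in FFPE liver had levels of 5.67, 6.61 and 7.15 in the controls, 3.83, 6.62 and 7.06 at 198, 5.06, 6.29 and 7.09 at 313 and 6.09, 6.54 and 7.14 at 427 mg/kg-d. All 4 groups overlapped, and the 6 animals at 427 mg/kg-d lay within the range of the controls. The log2 fold change of Bdh1 was -0.44 (SE 0.46, FDR = 0.741), -0.24 (FDR = 0.898) and 0.10 (95% interval -0.85 to 1.04, FDR = 1.00) at the 3 doses in limma. The interval at 427 mg/kg-d includes the FROZ value of 0.23.

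Slc16a1 in FFPE liver had levels of 4.64, 5.42 and 5.90 in the controls, 0.63, 5.85 and 6.58 at 198, 5.12, 6.37 and 7.14 at 313 and 5.50, 6.89 and 7.15 at 427 mg/kg-d. Of the 6 animals at the highest dose 5 lay above all controls, and at 313 mg/kg-d 4 of 6 did. The log2 fold change was 0.95 (SE 0.66, FDR = 0.620) at 313 and 1.32 (SE 0.66, 95% interval -0.03 to 2.67, FDR = 0.610) at 427 mg/kg-d, which limma on all 24 libraries did not call. It stayed uncalled in each of the 24 fits that left out 1 library, with FDRs from 0.130 to 0.872. The value of 0.63 at 198 mg/kg-d rested on 1 read in animal 49 and lay far below the other FFPE values of Slc16a1. Fitted on the controls and the 427 mg/kg-d group alone, the change of 1.32 had an SE of 0.32 and an FDR of 0.0124 in limma, and with library quality weights it was 1.36 (SE 0.35, FDR = 0.00919). The exact rank sum test, two-sided, gave p = 0.0152 at 427 and p = 0.0411 at 313 mg/kg-d. Without the 8 FFPE libraries with many genes at 0, the Slc16a1 value at 427 mg/kg-d was 1.38 (SE 0.33, FDR = 0.0139). At 198 mg/kg-d Slc16a1 was -0.45 (FDR = 0.816) and became 0.40 (FDR = 0.799) without animal 49.

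**Figure D3:**
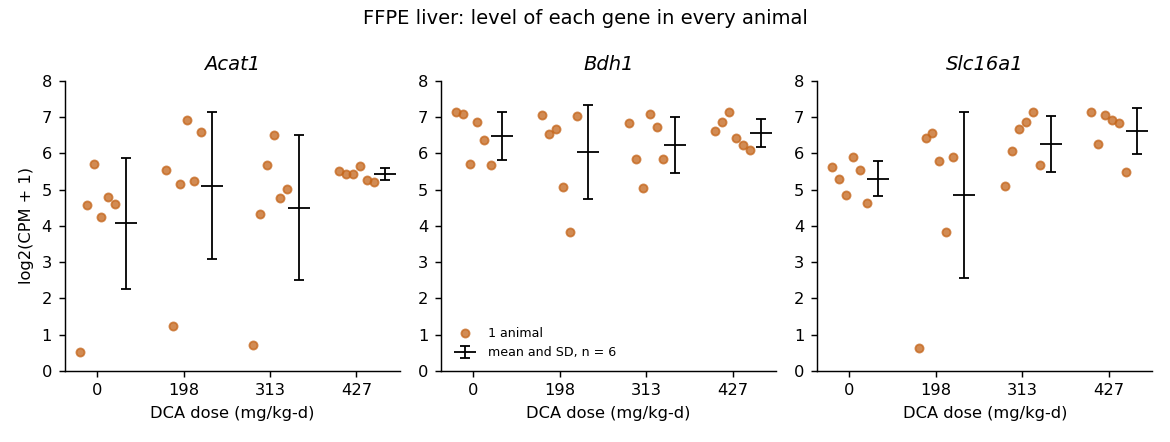
Level of Acat1, Bdh1 and Slc16a1 in FFPE liver, as log2(CPM + 1), against the DCA dose in mg/kg-d, drawn with points for animals and bars for the mean and SD of 6 animals. Acat1 has 1 point between 0.52 and 1.23 in each group but that at 427 mg/kg-d, Slc16a1 has a point at 0.63 at 198 mg/kg-d, and Bdh1 overlaps across doses.

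Since both libraries of an animal were available, the response to DCA was also compared between preservations within animals. The FFPE minus FROZ difference in log2 fold change at 427 mg/kg-d was 0.53 for Slc16a1 (95% interval -0.96 to 2.03), 0.80 for Acat1 (-1.18 to 2.79) and -0.13 for Bdh1 (-1.15 to 0.89), with an FDR of 1.00 for each in limma. At 198 and 313 mg/kg-d the FDR of the 3 genes ran from 0.688 to 0.990, and 0 of the 3 genes had an unadjusted p under 0.05 at any dose. Of the 6591 genes listed for both preservations, 0.0303, 0.0 and 0.0303% were called at the 3 doses. Each interval at 427 mg/kg-d is wider than the FROZ change of its gene, so a difference of that size was not detectable at this spread.

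All 3 genes were lower in FFPE than in FROZ liver in 6 of 6 animals at every dose. The mean difference in level was between -3.07 and -3.39 for Bdh1, between -2.85 and -4.02 for Acat1 and between -1.98 and -3.08 for Slc16a1 over the 4 groups, with FDRs between 2.96e-08 and 0.00270 in limma. A lower level in FFPE liver was called for 20.9% of all genes in the controls and for 26.3, 26.0 and 18.2% at the 3 doses. The tables were scaled separately, so these levels are shares of different gene sets. Scaled within the 6591 genes of both tables, the control differences were -3.16 for Bdh1, -3.94 for Acat1 and -2.57 for Slc16a1.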

How the data were processed

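TempO-Seq libraries of FROZ and FFPE liver, 24 each, were grouped by the group code and preservation in their titles. The 2 libraries of an animal were paired by animal number. The deposited values are log2(CPM + 1). Reads were demultiplexed and trimmed by Illumina software. The authors then aligned to mm10 (STAR, 2.6 in the submitters' processing notes), estimated gene counts by expectation maximization in Partek Flow and added 0.0001 to the count of every gene before filtering. Low genes, whose geometric mean over a table did not exceed 1, were dropped before each table was scaled to CPM on its own. Abundant probes were attenuated in the assay. The authors' own test (Partek GSA) was replaced by limma, which fits log values.

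Reads per library were recovered from the CPM of 1 read, which is the step of the low values. Of values up to 20 reads, 96.4 to 97.5% in FROZ and 84.7 to 95.3% in FFPE were whole within 0.1 read. Reads carry no molecular identifiers. Dose effects were tested in each table by limma 3.58.1 (R 4.3.3) with a mean-dependent variance prior (trend), 4 dose means and Benjamini-Hochberg adjustment over all genes. FFPE minus FROZ differences per animal were tested likewise, so the animal is the block. Deviations from dose means had a median r of 0.128 between libraries of the same animal and -0.0232 between others, over 4815 genes. The fits were also run on simulated normal values with known changes. Those values hold no libraries with many genes at 0, so they do not show how the fits behave on such FFPE libraries. Python 3.11.15, pandas 2.3.3 and scipy 1.17.1 were used for the rest. Alternatives were offsets of 0.1 and 0.0001, median-ratio scaling, a filter at 5 CPM, no trend, quality weights, 2 groups only, dose ranks, and leaving out each library. Animals are the replicates.

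The 3 genes, the pathway lists and the marker lists were chosen with earlier results of these data known. The genes named besides the 3 are the listed genes of ketone use, those called as DEGs at 427 mg/kg-d in the other lists, and the 3 most alike to each member. Slc16a13, Slc16a6, Slc16a7, Bsg, Ppargc1a and Cpt1a were named after their values were seen. Probe sequences, proteins and the promoter of Acat1 were not used here, and some other genes of the pathway are not reported here.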

Additional observations from a re-analysis of the deposited data

Results flagged for a closer look

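A single library stood apart from the other 5 of its group in 4 of the 40 groups of 6 libraries examined (the 3 genes, Oxct1 and Aacs), by Dixon's ratio of the gap to the range at its 95% critical value. Chance alone gives about 1 in 20 groups. In FROZ liver Acat1 was at 7.492 in animal 49 at 198 mg/kg-d, where the other 5 lay between 8.00 and 8.11. Oxct1 was at 5.115 in FROZ control animal 5, where the others lay between 2.29 and 2.86. In FFPE liver Acat1 was at 0.523 in control animal 3, with the others between 4.24 and 5.71, and at 1.234 in animal 50 at 198 mg/kg-d, with the others between 5.14 and 6.92. The FROZ library of animal 49 held 1407 reads of Acat1.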

How the results depend on the processing

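The calls of Acat1, Bdh1 and Slc16a1 mostly kept their side of the threshold, whereas the sign of small or widely spread uncalled values often turned. Direction and side were both kept in 71 of 71 results with an offset of 0.1, 51 of 56 with median-ratio scaling, 23 of 30 with quality weights, 27 of 30 with 2 groups only and 16 of 25 with the added exclusion of FFPE libraries, and in 30 of 30 each with an offset of 0.0001, the 5 CPM filter and no trend, 6 of 6 with dose ranks and 27 of 27 with CPM within the shared genes. The exact rank sum test kept the side in 15 of 18. Calls changed for Bdh1 in FROZ at 313 mg/kg-d, at -0.42 with median ratios and with an exact p of 0.0411, and for Slc16a1 in FFPE. At 427 mg/kg-d the latter was called, also as a DEG (1 of the 3 genes), with quality weights (1.36), with 2 groups only (1.32) and without the libraries with many genes at 0 (1.38). In these fits 281, 232 and 184 of all 6673 genes were DEGs in that order, against 121 in the main fit. The exact rank sum p of Slc16a1 in FFPE was 0.0152 at 427 and 0.0411 at 313 mg/kg-d. Without the replicate block of the paired fit, all 27 member results held, with Slc16a1 at 0.53 for the difference at 427 mg/kg-d.

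Signs turned as follows, none of these values being called. Median ratios gave -0.086 for Acat1 at 198 mg/kg-d in FROZ, -0.0080 for Bdh1 at 427 mg/kg-d in FFPE, and Bdh1 slopes of -0.0083 in FROZ and -0.0063 in FFPE. Quality weights gave -0.00096 for Acat1 at 198 mg/kg-d in FROZ and, at that dose in FFPE, -0.57 for Acat1, 0.027 for Bdh1 and 0.66 for Slc16a1. Without the FFPE libraries with many genes at 0, Acat1, Bdh1 and Slc16a1 were at -1.60, 0.28 and 1.26 at 198 mg/kg-d and at 2.10, -0.36 and -0.30 from 198 to 313 mg/kg-d. Leaving out 1 library at a time gave 0.42 to 0.55 for Bdh1 from 313 to 427 mg/kg-d in FROZ, with 0 to 1 of the 3 genes called there, and ranges across 0 for 15 uncalled results. In FROZ these were Acat1 at 198 mg/kg-d (-0.090 to 0.097) and, from 313 to 427 mg/kg-d, Acat1 (-0.084 to 0.048) and Slc16a1 (-0.052 to 0.10). In FFPE they were Bdh1 (-0.64 to 0.0063) and Slc16a1 (-0.79 to 0.40) at 198, Acat1 at 313 (-0.28 to 1.19), Bdh1 at 427 (-0.065 to 0.23), Bdh1 (-0.25 to 0.43) and Acat1 (-1.38 to 0.15) from 198 to 313 mg/kg-d, and the Bdh1 slope (-0.022 to 0.047). For FFPE minus FROZ they were Bdh1 (-0.48 to 0.15) and Slc16a1 (-0.90 to 0.29) at 198, and Bdh1 (-0.098 to 0.26), Acat1 (-0.84 to 0.62) and Slc16a1 (-0.016 to 0.44) at 313 mg/kg-d.

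Counts over all genes moved more. In FROZ 176 of 11275 genes had an FDR under 0.05 at 198 mg/kg-d. This count became 290 of the 7172 genes left by the 5 CPM filter, 100 without the trend and 88 with 2 groups only. An offset of 0.1 took DEGs from 12 to 22 at 198 and from 261 to 467 at 313 mg/kg-d (452 with 0.0001). In FFPE the 4 genes at 198 mg/kg-d became 7 with the filter, which left 6623 of 6673 genes, and 2 without the libraries with many zeros. The 72 genes at 313 mg/kg-d (54 DEGs) became 35 without the trend. The 161 genes at 427 mg/kg-d (121 DEGs) became 94 without the trend, 524 with weights (281 DEGs), 427 with 2 groups only (232 DEGs) and 281 without those libraries (184 DEGs), and the 71 and 25 genes between neighbouring doses became 23 and 13 (53 DEGs between 198 and 313 mg/kg-d became 23). Without the block, the 2 and 0 genes whose response differed at 198 and 313 mg/kg-d became 1 and 1. The cause of these changes was not tested. In FFPE liver Acat1 or Slc16a1 rested on 1 to 7 reads in 4 libraries. That of animal 50, with 7 reads of Acat1, held 5.18 M reads, with 191 genes at 0.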
